A study of Homo sapiens with 15 samples.

Results

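The surface proteins used to recognise mesenchymal stem cells and fat progenitors were followed as transcripts through adipogenic differentiation and then through culture in tumour-conditioned medium. The members were 10 genes chosen by symbol (THY1, ENG, NT5E, PI16, DPP4, PDGFRA, PDGFRB, MCAM, VCAM1 and ALCAM) among 17687 genes on the arrays. A probe set was annotated to 9 of them, and MCAM is not analysed here. Each of the 9 was read from a single probe set. The cells were ASC52, a human adipose-derived mesenchymal stem cell line immortalised with telomerase reverse transcriptase, so that the 3 groups share that transgene and 1 line of origin. MSC were undifferentiated cells. MA, labelled mature adipocytes, were put into adipogenic medium 3 days after seeding, kept in it for 14 days and then held for 7 days in RPMI with 10% fetal bovine serum. DED, labelled dedifferentiated adipocytes, had the same 14 days of differentiation and then 7 days in RPMI with 10% serum that had been conditioned on breast carcinoma cells (MDA-MB-231, a human line). MSC therefore differed from MA and DED in medium as well, and the time of their harvest is not given, which cannot be told apart from differentiation. Each group had 5 arrays. Whether the 5 arrays of a group were separate cultures is not said in the labels, and the p-values cover the variation among these arrays, which may be technical.

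THY1 (CD90), NT5E (CD73) and ENG (CD105) are the classical positive markers by which cultured mesenchymal stem cells are defined, together with the absence of blood cell markers. PI16 and DPP4 mark a mesenchymal progenitor of the connective tissue around fat lobules that lies upstream of committed preadipocytes, and PDGFRA and PDGFRB, the receptors for platelet-derived growth factors, mark most adipose stromal cells. MCAM, VCAM1 and ALCAM are adhesion molecules of the immunoglobulin superfamily found on stromal and perivascular cells. Values are RMA log2 intensities, on which a difference of 1 is a doubling of the signal, and are given as mean ± SD (n = 5) unless arrays are listed. A gene is said to rise or fall where limma's adjusted p (Benjamini-Hochberg over all genes) was under 0.05. Levels of different genes are not compared, since probe sets differ in brightness.

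All 8 adipocyte markers rose from MSC to MA, where 15.4% of all genes rose, and 7 of the 8 fell from MA to DED, where 13.0% fell. LEP, at 6.73 ± 0.20 in MA and 7.40 ± 0.85 in DED, did not pass that test. All 8 stayed above MSC in DED, where 17.1% of all genes were higher. The mean of the 8 markers ran from 5.56 to 5.76 in MSC, from 12.33 to 12.48 in MA and from 9.96 to 11.25 in DED. DED array 1 was the highest of its group, with the other DED arrays at 10.29 or lower. The part of adipocyte content in the results below was not tested, and fewer cells of a type and less RNA per cell cannot be told apart in bulk samples. The 6 measured haematopoietic markers all had group means under 8.31, the 95th percentile of the negative control probe sets, in each group, and their mean ran from 5.69 to 6.12 over the 15 arrays. CD14 rose in DED from 5.51 ± 0.25 in MA to 6.91 ± 0.58, and CD34 rose from 7.22 ± 0.30 in MSC to 8.17 ± 0.29 in MA and fell to 6.80 ± 0.30 in DED. The endothelial markers PECAM1, CDH5 and KDR had means under the negative control median of 4.80 in all groups, while TEK, the angiopoietin receptor, was 10.62 ± 0.10 in MSC and 6.65 ± 0.14 in MA. Of 4 epithelial markers none passed the test in any comparison, and the means of EPCAM and CDH1 lay under 4.80 in all groups. Of 6 mural cell markers 3 were above 8.31 in each group (KCNJ8, ABCC9 and ACTA2), and the list mean ran from 8.22 to 8.32 in MSC, from 8.25 to 8.42 in MA and from 8.24 to 8.75 in DED, where ACTA2 read 14.70 in array 3 and 11.91 to 12.34 in the others. Within groups the lowest correlation between arrays was 0.992 in MSC and MA and 0.982 in DED.

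Of the 9 measured markers 5 fell and 1 rose from MSC to MA, where 17.6% of all genes fell, 15.4% rose and 33.0% passed the test. From MA to DED 3 rose and 1 fell, where 12.9% of all genes rose, 13.0% fell and 25.9% passed. Against MSC, 6 were lower and 2 higher in DED, where 16.4% of all genes were lower, 17.1% were higher and 33.4% passed. The arrays of the groups did not overlap for 6, 4 and 8 markers in these comparisons, against 27.0%, 18.1% and 25.1% of all genes. The median difference of the 9 was -1.18 in MA against MSC, 0.12 in DED against MA and -0.79 in DED against MSC, where the medians of all genes were -0.0020, 0.018 and 0.028. THY1 and ENG fell and partly came back, PI16, DPP4 and ALCAM fell without a rise that passed the test, and NT5E fell only at the second step. PDGFRA rose at the first step, VCAM1 rose only at the second, and PDGFRB did not pass the test in any comparison.

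**Figure D1:**
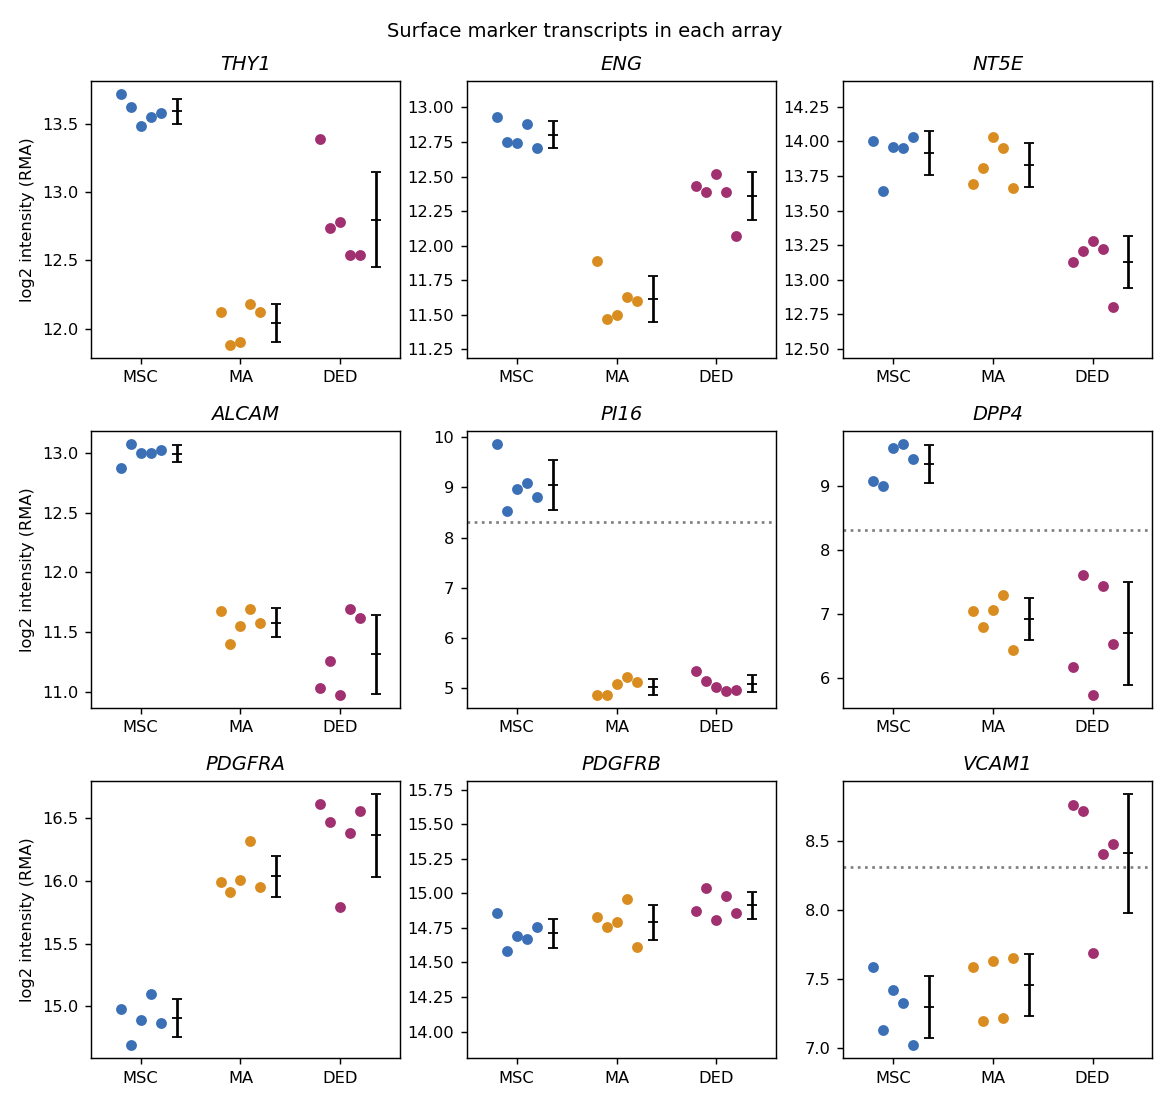
Each panel shows 1 marker transcript as log2 intensity in the 5 arrays of MSC (blue), MA (orange) and DED (purple), with the mean and SD as a black bar; the axes span at least 2 log2 units and do not start at 0, and the dotted line is the 95th percentile of the negative controls (8.31). THY1 and ENG lie between MA and MSC in DED, PI16 and DPP4 do not, and VCAM1 is raised in DED alone.

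THY1 is a small glycoprotein held in the membrane by a lipid anchor, which binds integrins on other cells. It was at 13.72, 13.62, 13.48, 13.55 and 13.58 in the MSC arrays, at 12.12, 11.88, 11.90, 12.18 and 12.12 in the MA arrays and at 13.39, 12.74, 12.78, 12.54 and 12.54 in the DED arrays. No 2 of the 3 groups overlapped, with DED between the others and DED array 1 close to MSC. The rise from MA to DED was 0.76, a fold of 1.69 (SE 0.14, limma adjusted p = 0.00031), and DED stayed below MSC by a log2 difference of -0.79 (SE 0.14, adjusted p = 0.00012). The rise covered 48.9% (SE 7.77) of the log2 step from MA to MSC, from 32.3% to 87.1% in single arrays. DED array 1, the highest for THY1, was also the highest for the adipocyte markers. Without it the regained part was 39.4%, with a rise of 0.61 (adjusted p = 0.00023).

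ENG, or endoglin, is a co-receptor that presents BMP and TGF-beta ligands to their signalling receptors. Its arrays read 12.93, 12.75, 12.74, 12.88 and 12.71 in MSC, 11.89, 11.47, 11.50, 11.63 and 11.60 in MA, and 12.43, 12.39, 12.52, 12.39 and 12.07 in DED. Again no groups overlapped, and DED lay between MA and MSC. ENG rose from MA to DED by 0.74, a fold of 1.67 (SE 0.11, adjusted p = 3.4e-05) and remained under MSC (-0.44, SE 0.11, adjusted p = 0.0037). The regained part was 62.7% (SE 8.23) of the step, from 38.2% in DED array 5 to 76.2% in array 3. Whether ENG regained more than THY1 was not tested.

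NT5E encodes the ecto-enzyme CD73, which makes adenosine from AMP outside the cell. It read 14.00, 13.64, 13.96, 13.95 and 14.03 in MSC, 13.69, 13.81, 14.03, 13.95 and 13.66 in MA, and 13.13, 13.21, 13.28, 13.22 and 12.80 in DED. MSC and MA overlapped, with a difference of -0.088 (95% interval -0.34 to 0.16, adjusted p = 0.64), and every DED array was under every other array. NT5E thus fell from MA to DED by 0.70 (SE 0.12, adjusted p = 0.00014), which put DED below MSC (-0.79, SE 0.12, adjusted p = 2.1e-05). Of the 3 classical markers, then, 2 rose and 1 fell in conditioned medium.

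In all, 2 of the 5 markers that fell in MA rose again in DED. Among all 3120 genes that fell in MA 902 did so (28.9%, or 5.1% of all genes tested), and with 5 markers the count is not set apart from that share. No second fall passed the test in DED for these 5 markers, against 17.3% of the fallen genes. Of all genes, 11.2% changed in MA and changed back in DED in either direction. Both comparisons use the MA arrays, so the comparison of DED with MSC, which does not use them, is given beside each marker. By this measure neither THY1 nor ENG reached the level of MSC.

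**Figure D2:**
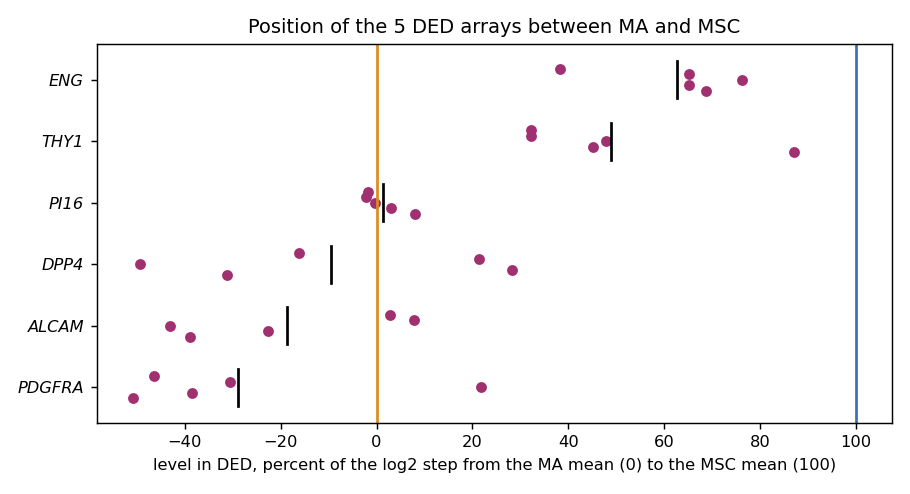
For the 6 markers that changed from MSC to MA, each point places 1 DED array on the log2 step between the MA mean (0%, orange line) and the MSC mean (blue line), and the black bar is the mean of the 5 arrays. ENG and THY1 average 62.7% and 48.9%, while the means of PI16, DPP4, ALCAM and PDGFRA lie between -28.8% and 1.34%; PDGFRA had risen in MA, so a negative value there is a level above MA.

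PI16, a secreted or membrane-anchored member of the CAP protein family found on fibroblast progenitors, fell in MA and had no rise past the test in DED. It read 9.87, 8.53, 8.97, 9.08 and 8.80 in MSC, 4.87, 4.86, 5.08, 5.22 and 5.12 in MA, and 5.35, 5.15, 5.02, 4.94 and 4.96 in DED. MA and DED overlapped and lay just above the negative control median of 4.80, far under every MSC array. PI16 was 1 of 27 genes with a fall of at least its size from MSC to MA. DED differed from MA by 0.054 (95% interval -0.32 to 0.43, adjusted p = 0.88) and from MSC by -3.97 (SE 0.18, adjusted p = 4.4e-13). Because MA and DED were near background, the size of the fall depends on background.

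DPP4 (CD26) is a membrane peptidase that trims chemokines and incretin hormones. Its values were 9.07, 9.0, 9.59, 9.66 and 9.42 in MSC, 7.04, 6.80, 7.06, 7.29 and 6.43 in MA, and 6.17, 7.61, 5.73, 7.44 and 6.53 in DED. DED was split around MA, with arrays 2 and 4 above every MA array and arrays 1 and 3 below every MA array, and all were under every MSC array. The difference from MA was -0.23 (95% interval -0.81 to 0.36, adjusted p = 0.62), and that from MSC was -2.65 (SE 0.28, adjusted p = 1.7e-07). Without DED arrays 1 and 3 the difference from MA turned to 0.27 and did not pass the test. These arrays were the lowest of DED for DPP4, so leaving them out had to raise the difference. The MA and DED means were under 8.31, so the size of the DPP4 difference depends on background.

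PDGFRA, the receptor that marks adipose progenitors in tissue, was higher after differentiation, at 14.98, 14.69, 14.89, 15.10 and 14.87 in MSC and 15.99, 15.91, 16.01, 16.32 and 15.95 in MA. In DED it was at 16.61, 16.47, 15.79, 16.38 and 16.56. Every MA and DED array lay above every MSC array, and 4 DED arrays lay above every MA array while array 3 lay under all of them. PDGFRA rose by 1.13 from MSC to MA (SE 0.14, adjusted p = 2.2e-06) and stood 1.46 above MSC in DED (SE 0.14, adjusted p = 6.0e-08). The difference of DED from MA was 0.33 (95% interval 0.029 to 0.62 before adjustment) and did not pass the test (adjusted p = 0.10), but was 0.47 and passed without DED array 3 (adjusted p = 0.0048). That array also had the highest mural marker mean of its group, with ACTA2 at 14.70 against 11.91 to 12.34 in the others. The mural markers did not move together, since ABCC9 was lowest in that array (11.66 against 12.16 to 12.50). The part of mural cells in the PDGFRA level was not tested. PDGFRB, which is also carried by pericytes, had group means of 14.71 ± 0.10 (MSC), 14.79 ± 0.13 (MA) and 14.91 ± 0.09 (DED). Its groups overlapped in all comparisons, and the difference of DED from MSC was 0.20 (95% interval -0.0078 to 0.41, adjusted p = 0.14). That difference passed with quantile normalization (0.28, adjusted p = 0.038) and with an intensity trend and robust moderation changed together (adjusted p = 0.044).

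VCAM1 is an inflammation-inducible adhesion molecule that holds leukocytes through the integrin made of ITGA4 and ITGB1. It read 7.59, 7.13, 7.42, 7.33 and 7.02 in MSC, 7.59, 7.20, 7.63, 7.22 and 7.65 in MA, and 8.76, 8.72, 7.69, 8.41 and 8.48 in DED. MSC and MA overlapped, and the DED arrays were above both, with array 3 above the highest MA array by a small margin. VCAM1 rose by 0.95 from MA to DED (SE 0.18, adjusted p = 0.00033) and by 1.11 from MSC to DED (SE 0.18, adjusted p = 3.5e-05). The MSC and MA means lay under 8.31, and the DED mean of 8.41 was just above it, with DED array 3 under it. The size of the rise therefore depends on background.

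ALCAM (CD166), which binds to itself and to CD6 on T cells, also fell and had no rise past the test. It was 13.00 ± 0.07 in MSC (12.88 to 13.08), and in the MA arrays it read 11.68, 11.40, 11.55, 11.69 and 11.58. In DED it read 11.03, 11.26, 10.97, 11.69 and 11.62, so that arrays 4 and 5 lay within the MA range and the other 3 under it. The difference of DED from MA was -0.27 (95% interval -0.54 to 0.012, adjusted p = 0.16). DED stayed under MSC by a log2 difference of -1.68 (SE 0.13, adjusted p = 2.4e-09), a fold of 3.21.

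**Figure D3:**
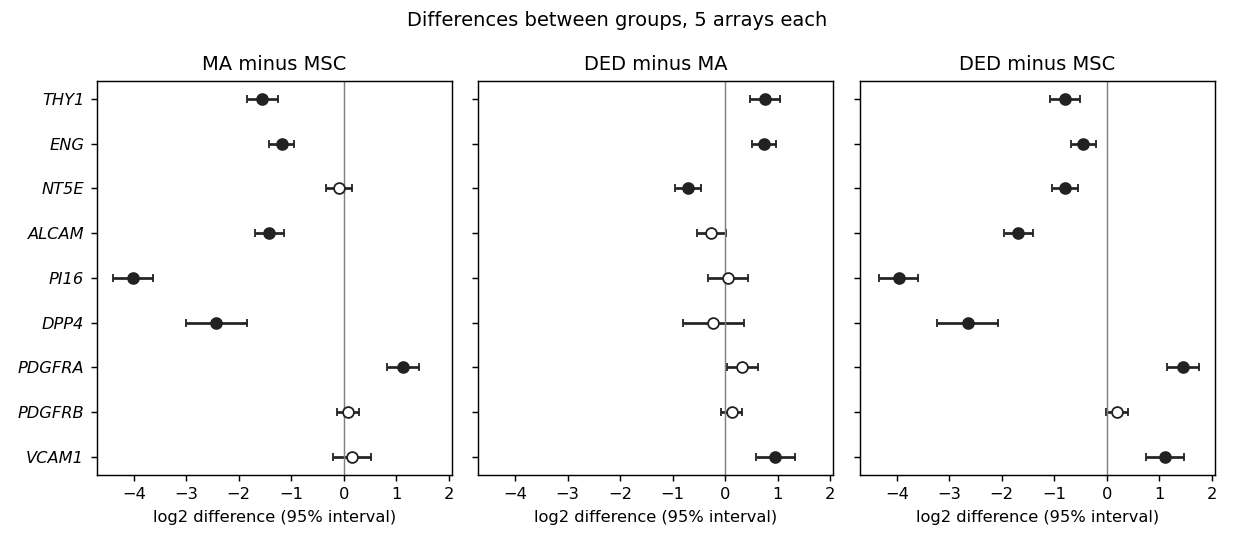
Log2 differences of the 9 markers with 95% intervals from the moderated fit, for MA minus MSC, DED minus MA and DED minus MSC; filled points passed the test and open points did not. The falls in MA are largest for PI16 and DPP4, and in DED minus MA only THY1, ENG and VCAM1 (up) and NT5E (down) are filled.

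RefSeq promoter sequences (GRCh38.p14) were matched for 9 of the 10 members, THY1 not among them, and 4 are shown over the 250 bases before the start, 5′ to 3′ on the gene's strand. They set VCAM1, raised only in DED, beside ENG, which partly returned, and PI16 and DPP4, which had no rise past the test in DED. Capitals mark matches, on either strand, to 5 motifs. These were the letters GGNTTTCC for the inflammatory factor NF-kappaB and TGANTCA for the AP-1 family of stress and growth factors. The GC box bound by SP1 was written as GGGCGG, and the core promoter element known as the TATA box was written as TATAAA. The element for SMAD proteins, which act below TGF-beta receptors, was written as CAGACA. The NF-kappaB letters were chosen to cover both known sites of VCAM1.
VCAM1, chr1:100719492-100719741, plus strand: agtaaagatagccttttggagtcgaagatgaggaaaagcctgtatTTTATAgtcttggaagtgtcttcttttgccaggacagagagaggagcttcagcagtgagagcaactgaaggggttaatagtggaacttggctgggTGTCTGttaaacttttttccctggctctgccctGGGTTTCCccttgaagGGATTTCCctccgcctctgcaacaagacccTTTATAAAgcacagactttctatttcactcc
ENG, chr9:127854659-127854908, minus strand: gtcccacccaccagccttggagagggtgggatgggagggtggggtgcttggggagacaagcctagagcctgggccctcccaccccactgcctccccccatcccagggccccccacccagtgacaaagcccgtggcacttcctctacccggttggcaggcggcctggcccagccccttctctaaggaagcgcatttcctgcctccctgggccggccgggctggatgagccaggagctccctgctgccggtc
PI16, chr6:36948046-36948295, plus strand: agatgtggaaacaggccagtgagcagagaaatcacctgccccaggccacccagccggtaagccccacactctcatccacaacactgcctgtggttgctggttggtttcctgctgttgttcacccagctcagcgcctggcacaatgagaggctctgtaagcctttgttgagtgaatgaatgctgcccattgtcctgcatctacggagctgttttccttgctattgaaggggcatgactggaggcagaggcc
DPP4, chr2:162074216-162074465, minus strand: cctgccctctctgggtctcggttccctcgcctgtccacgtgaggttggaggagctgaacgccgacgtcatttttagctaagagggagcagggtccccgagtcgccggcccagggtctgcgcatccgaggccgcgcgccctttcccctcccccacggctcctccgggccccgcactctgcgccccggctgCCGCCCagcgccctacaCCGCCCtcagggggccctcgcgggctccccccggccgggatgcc
The VCAM1 stretch held 2 NF-kappaB matches, GGGTTTCC from position -77 and GGATTTCC from position -61 (counted back from the start). Because the letters were chosen to cover these 2 sites, both matches were fixed in advance. Of 20090 promoter stretches of measured genes 5.23% held at least 1 such match and 0.209% held 2 or more. These shares describe the letters and are no test of VCAM1 or of the stretches without a match. The VCAM1 stretch also held TATAAA, which read on both strands overlaps itself around position -29 and recurs at -205 on the other strand. A SMAD match lay at -110. A TATAAA match was found in 8.81% of all stretches, a SMAD match in 11.9%, an AP-1 match in 5.42% and a GC box in 54.4%. The DPP4 stretch held 2 GC boxes (32.5% of all stretches held 2 or more), and none of the 5 motifs was found in the ENG and PI16 stretches. The GC content was 46.0% for VCAM1, 55.2% for PI16, 69.6% for ENG and 73.6% for DPP4, with a median of 62.0% over all stretches. A match is a run of letters and not evidence of binding.

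Among 24 other measured stromal surface genes 6 rose and 9 fell from MSC to MA, and 4 rose and 11 fell from MA to DED. Against MSC, 7 were higher and 13 lower in DED. Of all genes, 15.4% rose and 17.6% fell at the first step, and 12.9% rose and 13.0% fell at the second. In DED against MSC 17.1% of all genes were higher and 16.4% lower. ITGA11, a collagen-binding integrin chain of fibroblasts, read 10.08 ± 0.07 in MSC, 6.93 ± 0.42 in MA and 10.03 ± 0.51 in DED, a rise of 3.10 in conditioned medium (SE 0.21, adjusted p = 7.5e-10). ROR2, a Wnt receptor, rose from 6.86 ± 0.28 in MA to 9.52 ± 0.34 in DED, above its MSC level of 7.68 ± 0.19. BST1 (CD157) fell in MA and had no rise past the test in DED (adjusted p = 0.14), at 10.52 ± 0.14, 7.20 ± 0.25 and 7.49 ± 0.23 in MSC, MA and DED. The peptidase MME (CD10) went the other way, from 12.75 ± 0.31 in MSC to 14.68 ± 0.10 in MA and 15.12 ± 0.14 in DED. CD9, a tetraspanin, was 7.52 ± 0.21, 7.99 ± 0.39 and 4.89 ± 0.34, and SUSD2 was 6.91 ± 0.30, 9.57 ± 0.30 and 7.37 ± 0.29, in the same order. The means of ITGA11 in MA, ROR2 in MSC and MA, BST1 in MA and DED, SUSD2 in MSC and DED and CD9 in each group were under 8.31, so the sizes of these differences depend on background.

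Genes of the DPP4+ PI16+ progenitor changed in both directions. Of 10 measured 3 rose and 4 fell from MSC to MA, 2 rose and 3 fell from MA to DED, and against MSC 4 were lower in DED. Among all genes 33.0%, 25.9% and 33.4% passed the test in these comparisons, and no list was tested against these shares. CD55, a complement inhibitor on the surface of these progenitors, read 14.14 ± 0.12, 12.54 ± 0.12 and 13.90 ± 0.30 in MSC, MA and DED, a rise of 1.36 (SE 0.13, adjusted p = 9.3e-08). Its difference of DED from MSC was -0.25 (adjusted p = 0.16), and -0.35 without DED array 3 (adjusted p = 0.032). SEMA3C, a secreted semaphorin, fell by 2.52 in MA and rose by 0.58 in DED (SE 0.17, adjusted p = 0.013; 0.40 and adjusted p = 0.091 without DED arrays 1 and 3). PCOLCE2 and MFAP5, 2 matrix proteins, rose in MA and fell in DED, PCOLCE2 from 12.22 ± 0.07 to 10.28 ± 0.41 and MFAP5 from 15.86 ± 0.04 to 14.94 ± 0.26. The third rise in MA was BMP7, named after its values were seen, whose means were under 4.80 in all groups. Of 12 genes of committed preadipocytes and F3+ stromal cells 5 rose and 2 fell from MSC to MA and 4 fell from MA to DED. In DED against MSC 4 of them were higher and 1 lower. CD36, a fatty acid receptor that fell in DED, was at 5.87 ± 0.56, 11.34 ± 0.15 and 7.66 ± 0.44 in MSC, MA and DED, the first and last under 8.31. FMO2 rose in MA and had no fall past the test in DED, at 5.05 ± 0.25, 8.30 ± 0.25 and 8.76 ± 0.89. Its MSC and MA means were under 8.31.

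**Figure D4:**
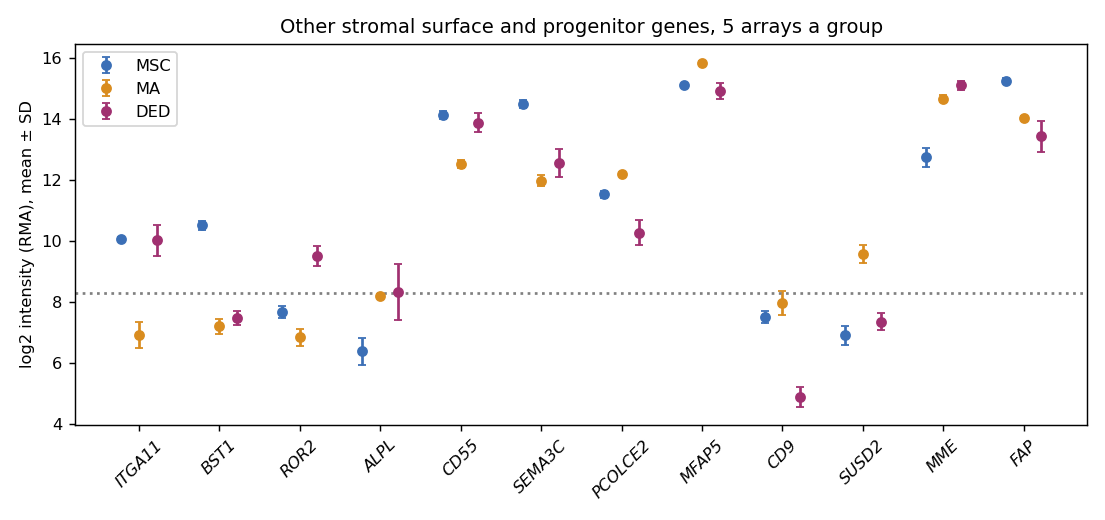
Group means and SD (log2 intensity, 5 arrays) of other stromal surface genes and progenitor genes in MSC (blue), MA (orange) and DED (purple), with the 95th percentile of the negative controls as a dotted line. ITGA11 and CD55 in DED lie near MSC, BST1 stays near MA, and CD9 falls below both.

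The partners of the receptors were read from the same fit, in which 33.0% of all genes passed from MSC to MA and 25.9% from MA to DED. Of 7 PDGF ligands, activators and co-receptors 5 fell and 1 rose from MSC to MA, and from MA to DED 0 of the 7 passed limma's test (1 at an unadjusted p under 0.05). PDGFC, with 9.35 ± 0.26 in MSC, fell to 7.14 ± 0.19 in MA and read 6.79 ± 0.57 in DED, while PDGFD rose from 7.62 ± 0.19 to 10.62 ± 0.17 and was 10.68 ± 0.44. Of 18 genes around endoglin 5 rose and 8 fell from MSC to MA, and 7 rose and 2 fell from MA to DED. The receptor TGFBR1 rose in DED from 8.34 ± 0.25 to 10.60 ± 0.17, and the type I receptor ACVRL1, which pairs with endoglin, was 9.91 ± 0.27, 11.61 ± 0.19 and 11.55 ± 0.47 in MSC, MA and DED. Among the BMP-responsive ID genes, ID2 and ID3 rose from MA to DED (2.63, SE 0.16, and 1.04, SE 0.22) and ID1 fell (-2.86, SE 0.26). In DED against MSC, ID2 was higher (1.06, SE 0.16), while ID3 (-2.52, SE 0.22) and ID1 (-3.71, SE 0.26) were lower. ID1 in DED, at 3.55 ± 0.37, lay under the negative control median of 4.80. The sizes depend on background, since ID2 in MA, ID3 in MA and DED and ID1 in each group had means under 8.31, as did PDGFC in MA and DED and PDGFD in MSC.

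Of 11 genes of extracellular adenosine handling, the pathway of NT5E, 2 rose and 2 fell from MSC to MA, and 2 rose and 4 fell from MA to DED. The counts here were not tested against the shares of all genes that passed, 33.0% and 25.9% in these comparisons. The adenosine receptor ADORA1 was 6.07 ± 0.44, 7.59 ± 0.08 and 5.46 ± 0.19 in MSC, MA and DED, under 8.31 throughout. FAP, the closest relative of DPP4 and a marker of activated fibroblasts, fell at both steps, from 15.27 ± 0.09 to 14.06 ± 0.07 and 13.44 ± 0.51. CXCL12, a chemokine cut by DPP4, rose in MA by 0.56 (SE 0.17, adjusted p = 0.015) and fell in DED by 0.99 (SE 0.17, adjusted p = 0.00018). Its means were 10.49 ± 0.19, 11.05 ± 0.08 and 10.07 ± 0.47 in MSC, MA and DED, and DED against MSC did not pass the test. Of 9 genes in that list 2 rose and 2 fell from MSC to MA and 2 fell from MA to DED. Of 12 adhesion partners and shedding genes 2 rose and 3 fell from MSC to MA, and 3 rose and 2 fell from MA to DED. ADAM17, a protease that sheds VCAM1 and ALCAM from the surface, rose in DED from 9.24 ± 0.20 to 10.01 ± 0.12. ITGB1, part of the VCAM1 receptor, fell in MA from 16.77 ± 0.06 to 15.81 ± 0.13. The other chain of that receptor, ITGA4, named after its values were seen, was 7.36 ± 0.10, 7.19 ± 0.27 and 7.26 ± 0.28 in MSC, MA and DED, under 8.31 throughout. Of 8 CAP family genes CRISPLD2 rose at both steps, from 8.69 ± 0.28 to 10.91 ± 0.18 and 12.48 ± 0.30, and GLIPR1 fell in MA by 1.16 (SE 0.11).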

How the data were processed

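The authors deposited log2 intensity values for 15 single-colour arrays, for which the submitters' processing notes name RMA and Transcriptome Analysis Console. RMA normalizes between arrays, so a shift shared by most genes cannot be read. Their versions and settings and the genome build were not given in the sources used here. Of 24351 probe sets 17709 carried 1 gene symbol and 3739 transcript probe sets none. For 20 genes with several probe sets the one with the highest mean was kept (17687 genes). No dim probe set was left out. Background was read from 612 negative control probe sets (median 4.80, 95th percentile 8.31).

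Groups came from the sample titles. limma 3.58.1 in R 4.3.3 fitted 1 mean per group over all 15 arrays (lmFit, eBayes, two-sided, Benjamini-Hochberg over 17687 genes, threshold 0.05), and was tested on simulated data. The regained part is DED minus MA over MSC minus MA, with a delta-method SE. The number of arrays limits precision. Members and lists were chosen with earlier results of these data known. Named were all members and, per list and comparison, up to 2 rises and 2 falls past the test, of which fewer are printed, and any cell type marker. Alternatives were quantile normalization, a common median, dim genes left out, array weights, robust moderation with a trend on intensity, fits of only 2 groups, the replicate number as a block, each probe set tested singly, each array left out and DED arrays 1 and 3 left out. Figures used Python 3.11.15 and matplotlib 3.10.9.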

Additional observations from a re-analysis of the deposited data

Results flagged for a closer look

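In groups of 5 arrays, a gap between the highest or lowest array and its nearest neighbour larger than Dixon's critical share of the range (0.71) set 17 values apart among 156 groups of 52 genes, where chance gives about 1 in 20. Among the markers, THY1 in DED was 13.39 in array 1 against 12.54 to 12.78 in the others, and ENG in DED was 12.07 in array 5 against 12.39 to 12.52 in the others. NT5E in MSC was 13.64 in array 2 against 13.95 to 14.03 in the others. PDGFRA in MA was 16.32 in array 4 against 15.91 to 16.01 in the others, and PDGFRA in DED was 15.79 in array 3 against 16.38 to 16.61 in the others.

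DED array 3 also stood apart in ALPL (9.93 in array 3 against 7.64 to 8.20 in the others), ICAM1 (9.18 in array 3 against 7.12 to 7.63 in the others) and DPP9 (12.03 in array 3 against 11.17 to 11.28 in the others). MSC array 2 stood apart in MME (12.21 in array 2 against 12.85 to 12.98 in the others) and ALPL (5.63 in array 2 against 6.46 to 6.74 in the others). In MSC array 4, TGFBR1 was at 8.74 (8.33 to 8.42 in the others) and ADORA1 at 6.82 (5.69 to 5.97). In MA, SEMA3C was at 12.30 in array 4 (11.87 to 11.98), CD55 at 12.75 in array 5 (12.45 to 12.53) and ID3 at 6.18 in array 1 (6.94 to 7.19). In DED, GDF10 was at 6.67 in array 5 (5.96 to 6.16) and GLIPR1 at 10.36 in array 2 (9.84 to 9.97).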

How the results depend on the processing

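Over the 24 alternatives run, the number of markers past the test was 6 in MA against MSC in each, 4 or 5 in DED against MA and 8 or 9 in DED against MSC, and the number that returned was 2 in each. Of 648 values of single markers 5 crossed the threshold and 643 did not. These were PDGFRA in DED against MA without DED array 3 (0.47), without DED arrays 1 and 3 (0.43, adjusted p = 0.015) and with array weights (0.38, adjusted p = 0.027), and PDGFRB in DED against MSC with quantile normalization and with an intensity trend and robust moderation changed together; the cause was not tested. Leaving out 1 array at a time, the rise in DED against MA ran from 0.61 to 0.82 for THY1, from 0.70 to 0.81 for ENG and from 0.87 to 1.13 for VCAM1, and the fall of NT5E from -0.74 to -0.62. Among values of the other named genes 33 lost and 47 gained the call, of 3096.

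Same-numbered arrays of different groups did not deviate together, with correlations from -0.11 to 0.087 over 15 pairs. In 1 of these 15 pairs the first array correlated best with its own number. No pairing by number was seen, which does not exclude one. With the replicate number as a block the counts of markers past the test were again 6, 4 and 8. Among the markers PI16, DPP4 and VCAM1, and among the other named genes those said to be under 8.31, had group means below the background limit used here, so the sizes of their differences depend on background.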
